A study of Sus scrofa with 9 samples.

Results

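Of the 27339 genes in a count table of cultured pig myoblasts, 10 were described here: genes best known from smooth muscle cells and from pericytes, the contractile cells that wrap small blood vessels. They were chosen by name (ACTA2, ACTG2, MYH11, CNN1, TAGLN, MYLK, LMOD1, SYNPO2, CSPG4 and MCAM). All 10 were found in the table and all 10 passed the filter on low counts, which 15956 genes passed. The cells were primary myoblasts of the Gottingen pig at passages 7 to 9, and all cells received doxycycline at 1 µg/mL for 16 h to switch on a transgene. The transgene was human DUX4 in 3 libraries, pig DUXC in 3 and GFP, a fluorescent protein that served as the control, in 3. Myoblasts are the dividing precursors of skeletal muscle fibres. DUX4 and DUXC are double homeobox transcription factors, and misplaced DUX4 in skeletal muscle underlies facioscapulohumeral muscular dystrophy (FSHD). The study asked how alike the programmes are that the human and the pig factor switch on. The sources used here give neither the promoter behind the transgenes nor the number of cultures behind each group. A p-value here therefore covers library-to-library spread alone, part or all of which may be technical.

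Smooth muscle contracts when calcium activates myosin light chain kinase, which phosphorylates the light chain of smooth muscle myosin and lets it pull on actin filaments. Most genes of this apparatus are switched on together by serum response factor (SRF) with its partners of the myocardin family, some of which sense free actin, and TGF-beta signalling raises them. They are not confined to vessels and gut: cultured fibroblasts, myofibroblasts and immature skeletal muscle cells make several of these proteins as part of their stress fibres. CSPG4 (also called NG2) and MCAM (also called CD146) are surface proteins used to recognise pericytes, and both are also made by other immature cells.

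Total counts were 36580573 to 44420895 per library. The cell type label was checked against marker genes, with levels as CPM, the counts divided by the normalised library size on a common scale. Of 15 markers of skeletal myoblasts, 5, 5 and 10 reached 1 CPM in the GFP, DUX4 and DUXC groups. In the GFP group these included DES at 7.15 ± 0.326 CPM and ITGA7 at 5.77 ± 0.438 CPM (mean ± SD, n = 3). MYOD1 had 1 count over the GFP libraries. The median level of the 15 was 0.402, 0.568 and 1.78 CPM in the 3 groups. Most of these markers were thus under 1 CPM in the GFP and DUX4 groups, although the cells were labelled as myoblasts. The 15 summed to 158 to 165 CPM per library with GFP, 272 to 278 CPM with DUX4 and 419 to 438 CPM with DUXC, and 10 fibroblast markers to 49561 to 52662, 28902 to 32615 and 25449 to 25470.3 CPM. The median level of these 10 was 354 CPM with GFP, 219 CPM with DUX4 and 540 CPM with DUXC. With DUXC 4 of them were higher than with GFP and 6 lower (edgeR, adjusted p under 0.05), against 40.2% and 42.3% of all tested genes. With DUX4 these were 1 and 9, against 32.9% and 31.9%. The 12 endothelial markers summed to 79.1 to 82.8, 125 to 132 and 86.3 to 90.2 CPM, and 4, 4 and 5 of them reached 1 CPM. With GFP these were ERG at 53.3 ± 1.54 CPM (mean ± SD, n = 3), EMCN at 11.2 ± 0.286, FLT1 at 9.65 ± 0.548 and PECAM1 at 6.16 ± 0.525, while CDH5 had no count and VWF 1 count. The 10 immune cell markers summed to 16.4 to 19.6, 14.1 to 16.0 and 22.5 to 24.4 CPM, and 3, 4 and 4 of them reached 1 CPM. With GFP these were CD14 at 6.48 ± 0.567 CPM, ITGAM at 6.36 ± 0.477 and CSF1R at 2.67 ± 0.487, while PTPRC and CD3E had no count. The 12 proliferation genes summed to 156 to 163, 950.2 to 1014 and 421 to 453 CPM. The part of these shifts in the results on the 10 genes was not tested, and in such bulk libraries fewer cells of a type and less RNA per cell cannot be told apart.

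With DUX4, 8 of the 10 genes were lower than with GFP and 2 were higher, CSPG4 and MCAM. With DUXC, 8 were lower and 2 were higher, SYNPO2 and MCAM. Every gene passed the quasi-likelihood test of edgeR (adjusted p under 0.05) in both comparisons, which share the GFP libraries. The background was high: 64.8% of the tested genes passed with DUX4, 32.9% as higher and 31.9% as lower, and 82.5% passed with DUXC, 40.2% as higher and 42.3% as lower. At least 2-fold falls were seen for 5 of the 10 genes with DUX4 and for 8 with DUXC, against 5.26% and 7.97% of all tested genes. Falls of at least 4-fold were rarer. ACTA2 and LMOD1 fell that far with DUX4, as 1.47% of the tested genes did. ACTA2, ACTG2, CNN1, LMOD1 and CSPG4 fell that far with DUXC, as 0.721% did. The median log2 fold change of the 10 genes was -1.08 with DUX4 and -1.96 with DUXC, against 0.0035 and -0.03 over all tested genes. For each of the 10 genes, the 3 libraries of either factor lay outside the range of the 3 GFP libraries, which held for 67.0% of the tested genes with DUX4 and 83.5% with DUXC.

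**Figure D1:**
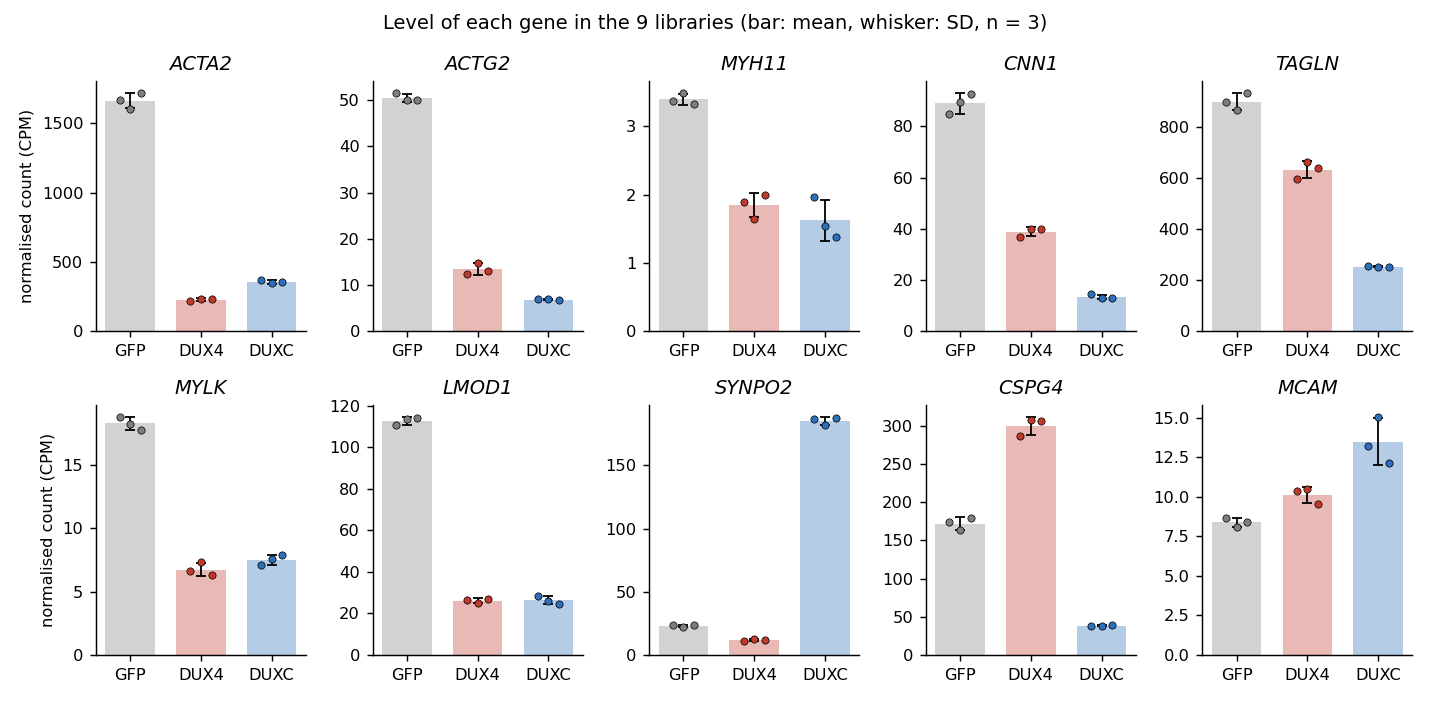
Normalised counts (CPM, linear axis from 0, a separate scale for each gene) of the 10 genes in the 3 GFP, 3 DUX4 and 3 DUXC libraries; points are libraries, bars are means and whiskers are SD. ACTA2 is several times higher in each GFP library than in any other library, SYNPO2 is high with DUXC alone, and CSPG4 is highest with DUX4 and lowest with DUXC.

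The first set of genes encodes the filaments themselves. ACTA2 encodes smooth muscle alpha actin (chromosome 14, 100868145 to 100886732, Sscrofa11.1). It had 1668, 1605 and 1716 CPM in the GFP libraries, 215, 232 and 235 CPM in the DUX4 libraries and 368, 345 and 352 CPM in the DUXC libraries. The 3 groups did not overlap, and DUX4 gave the lowest levels. ACTA2 was 7.32-fold lower with DUX4 (95% interval 6.98 to 7.69, adjusted p = 6.03e-45) and 4.69-fold lower with DUXC (4.47 to 4.91, adjusted p = 4.83e-42). These were number 91 and number 74 of 15956 genes, counted from the most negative change.

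ACTG2 encodes smooth muscle gamma actin, the isoform of the gut wall (chromosome 3, 69097366 to 69121542). Its levels were 51.6, 50.1 and 49.9 CPM with GFP, 12.4, 14.9 and 13.1 CPM with DUX4 and 6.89, 6.88 and 6.75 CPM with DUXC. The groups did not overlap, and here DUXC gave the lowest levels. ACTG2 was 3.75-fold lower with DUX4 (3.48 to 4.05) and 7.38-fold lower with DUXC (6.78 to 8.03), number 18 from the most negative change with DUXC. Tested directly, DUX4 libraries were lower than DUXC libraries for ACTA2 (log2 -0.64 ± 0.0330 SE, adjusted p = 7.42e-22) and higher for ACTG2 (log2 0.98 ± 0.0706 SE, adjusted p = 2.22e-17).

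The muscle actins are close to identical as proteins and their coding sequences are similar, so the authors' counting could assign some reads of one gene to another. Of the counts of the 4 muscle actins ACTA1, ACTA2, ACTC1 and ACTG2, ACTA2 took 97.0 ± 0.121% with GFP, 94.1 ± 0.457% with DUX4 and 97.8 ± 0.0869% with DUXC (mean ± SD, n = 3). ACTG2 took 2.95 ± 0.107%, 5.57 ± 0.391% and 1.89 ± 0.0591%. The skeletal and cardiac actins ACTA1 and ACTC1 each took at most 0.283% in any library. With the 4 genes summed into 1 feature the log2 fold change was -2.83 with DUX4 and -2.24 with DUXC.

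MYH11 encodes the heavy chain of smooth muscle myosin (chromosome 3, 7002667 to 7143093) and was scarce, with 130 to 138 counts in each GFP library. It stood at 3.38, 3.49 and 3.34 CPM with GFP, 1.89, 1.65 and 2.00 CPM with DUX4 and 1.96, 1.54 and 1.38 CPM with DUXC. Both factors gave lower levels, while the DUX4 and DUXC libraries overlapped. The fall was 1.84-fold with DUX4 (1.51 to 2.25, adjusted p = 4.41e-07) and 2.09-fold with DUXC (1.70 to 2.56, adjusted p = 7.32e-09). The difference between the factors did not pass (log2 0.18, 95% interval -0.15 to 0.51, adjusted p = 0.298).

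The second set regulates or stabilises the filaments. CNN1 encodes calponin, an actin-binding protein that restrains the myosin motor (chromosome 2, 70183370 to 70190756). It had 84.7, 89.4 and 92.8 CPM with GFP, 36.9, 39.8 and 39.9 CPM with DUX4 and 14.4, 12.98 and 13.1 CPM with DUXC. The groups stood in that order without overlap. The fall was 2.29-fold with DUX4 (2.16 to 2.43) and 6.59-fold with DUXC (6.16 to 7.05), number 25 from the most negative change with DUXC. DUX4 libraries were 2.88-fold above DUXC libraries (2.68 to 3.09, adjusted p = 2.96e-30).

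TAGLN encodes transgelin, or SM22 alpha, an early marker of the smooth muscle lineage that binds actin (chromosome 9, 44561756 to 44567385). It had 898, 868 and 934 CPM with GFP, 598, 663 and 640.1 CPM with DUX4 and 257, 252 and 251 CPM with DUXC. Again the groups stood in that order without overlap. TAGLN was 1.42-fold lower with DUX4 (1.36 to 1.49), the smallest of the 8 falls with that factor, and 3.55-fold lower with DUXC (3.39 to 3.72). Directly compared, the DUX4 libraries were 2.50-fold higher than the DUXC libraries (2.39 to 2.62, adjusted p = 5.32e-34).

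MYLK encodes myosin light chain kinase, the calcium-dependent enzyme that starts contraction (chromosome 13, 136509878 to 136809674). It had 18.8, 18.3 and 17.8 CPM with GFP, 6.61, 7.34 and 6.28 CPM with DUX4 and 7.07, 7.57 and 7.90 CPM with DUXC. Both factors lay well below GFP and overlapped each other. MYLK was 2.71-fold lower with DUX4 (2.45 to 3.00) and 2.43-fold lower with DUXC (2.20 to 2.69). The difference between the factors was log2 -0.15 (95% interval -0.32 to 0.01, adjusted p = 0.0826).

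LMOD1 encodes leiomodin 1, which nucleates actin filaments in smooth muscle (chromosome 10, 24165293 to 24194823). It had 111, 114 and 114 CPM with GFP, 26.6, 24.9 and 27.1 CPM with DUX4 and 28.4, 25.9 and 24.7 CPM with DUXC. The libraries of the factors overlapped here too. LMOD1 was 4.31-fold lower with DUX4 (4.06 to 4.57) and 4.28-fold lower with DUXC (4.03 to 4.54), a difference of log2 -0.01 (-0.11 to 0.09, adjusted p = 0.851). With library size alone as the scaling, which shifted the median of all genes by -0.10 in the contrast of the factors and by 0.12 between DUXC and GFP, the difference between the factors passed for MYLK (log2 -0.25, adjusted p = 0.00472) and for LMOD1 (log2 -0.11, adjusted p = 0.0331). Without the second DUX4 library it passed for MYLK (log2 -0.21, adjusted p = 0.0339), while the difference for LMOD1 did not pass and changed sign (log2 0.04).

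Summed over these 7 genes of filaments and their regulators, the level was 2837 ± 90.2 CPM with GFP, 948 ± 45.3 CPM with DUX4 and 664 ± 17.0 CPM with DUXC (mean ± SD, n = 3), most of it from ACTA2 and TAGLN. The 7 genes fell by different amounts. With DUX4 their changes ran from log2 -0.51 for TAGLN to -2.87 for ACTA2, and with DUXC from -1.06 for MYH11 to -2.88 for ACTG2.

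**Figure D2:**
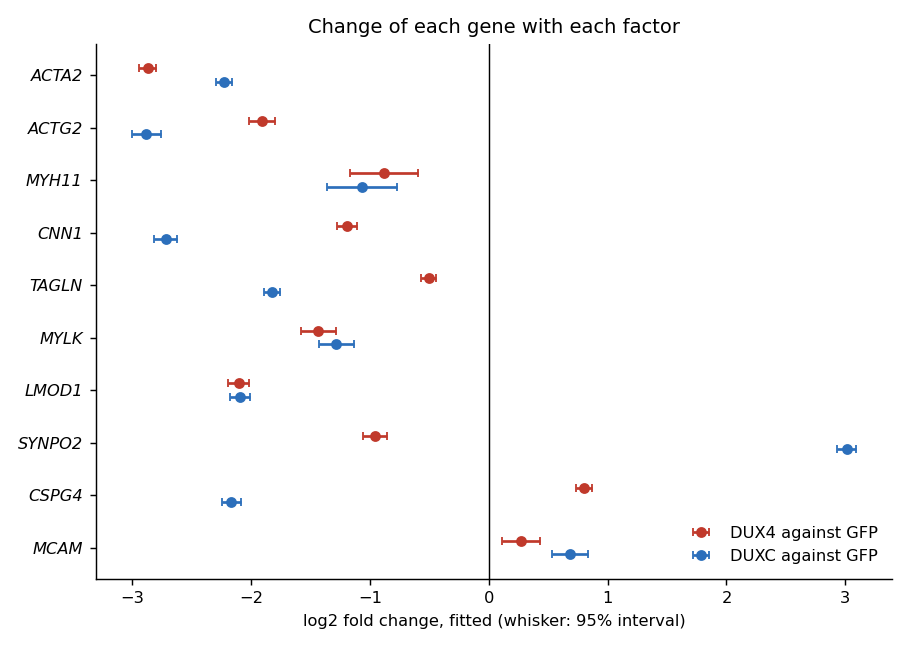
Fitted log2 fold change of each of the 10 genes with DUX4 (red) and with DUXC (blue), each against the same 3 GFP libraries; points are estimates and whiskers are 95% intervals. The intervals of the factors overlap for MYH11, MYLK and LMOD1, and the points lie on opposite sides of 0 for SYNPO2 and CSPG4.

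SYNPO2 encodes synaptopodin 2, or myopodin, which bundles actin at the dense bodies of smooth muscle and the Z-discs of striated muscle (chromosome 8, 104677580 to 104844169). It had 23.5, 22.0 and 23.4 CPM with GFP, 11.11, 12.4 and 11.9 CPM with DUX4 and 187, 182 and 188 CPM with DUXC. The DUXC libraries stood far above all others and the DUX4 libraries below all others. SYNPO2 was 1.94-fold lower with DUX4 than with GFP (1.81 to 2.09) and 8.07-fold higher with DUXC (7.64 to 8.53). DUX4 and DUXC differed 15.7-fold (14.8 to 16.7, adjusted p = 7.21e-51), the widest gap between the factors among the 10 genes. SYNPO2 lies within the span of SEC24D, a gene of vesicle transport (chromosome 8, 104560723 to 105005400), and no source used here says whether the counting used strand. SEC24D had 224 ± 0.956 CPM with GFP, 189 ± 2.05 CPM with DUX4 and 113 ± 2.82 CPM with DUXC, and the part of its reads in the SYNPO2 counts was not tested.

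The third set marks the pericyte surface. CSPG4 encodes a transmembrane proteoglycan that binds collagen and growth factors (chromosome 7, 57949182 to 57988602). It had 174, 163 and 179 CPM with GFP, 287, 308 and 307 CPM with DUX4 and 37.8, 37.8 and 39.5 CPM with DUXC. The 3 groups did not overlap, with GFP between the factors. CSPG4 rose 1.75-fold with DUX4 (1.66 to 1.83, adjusted p = 1.96e-25) and was 4.49-fold lower with DUXC (4.26 to 4.74, adjusted p = 3.56e-41). DUX4 libraries stood 7.84-fold above DUXC libraries (7.43 to 8.27, adjusted p = 1.15e-46).

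MCAM encodes an adhesion molecule of the immunoglobulin superfamily (chromosome 9, 46506375 to 46522091). It had 8.66, 8.11 and 8.44 CPM with GFP, 10.4, 10.5 and 9.56 CPM with DUX4 and 13.2, 15.1 and 12.1 CPM with DUXC. The groups stood in that rising order without overlap. MCAM rose 1.21-fold with DUX4 (1.08 to 1.35, adjusted p = 0.00257) and 1.61-fold with DUXC (1.44 to 1.79, adjusted p = 3.91e-11), the smallest change among the 10 genes with either factor. The difference between the factors passed (log2 -0.41, DUX4 minus DUXC, adjusted p = 2.59e-06). The span of MCAM overlaps that of CBL, a ubiquitin ligase gene, which had 22.9 ± 0.454 CPM with GFP, 24.8 ± 1.81 CPM with DUX4 and 41.6 ± 1.86 CPM with DUXC, and the part of its reads in the MCAM counts was not tested.

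In the direct comparison of the factors, 4 of the 10 genes were higher with DUX4 (ACTG2, CNN1, TAGLN and CSPG4), 3 were higher with DUXC (ACTA2, SYNPO2 and MCAM) and 3 did not pass (MYH11, MYLK and LMOD1). Over all tested genes 82.4% passed: 40.8% were higher with DUX4 and 41.6% were lower. The libraries of DUX4 and DUXC did not overlap for 7 of the 10 genes and for 83.0% of all tested genes. MYH11, MYLK and LMOD1 overlap the spans of uncharacterised noncoding genes. The one at MYH11 had 1 count over all 9 libraries. That at MYLK had 5.81 ± 0.416, 4.63 ± 0.348 and 6.25 ± 0.466 CPM in the GFP, DUX4 and DUXC groups, and that at LMOD1 1.29 ± 0.188, 3.10 ± 0.343 and 0.918 ± 0.122 CPM.

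Other contractile and actin-binding genes of smooth muscle were read from a list of 30, of which 29 were tested. The list also holds adhesion genes such as integrin subunits. With DUX4, 24 were lower and 2 were higher, and with DUXC 28 were lower and 1 was higher. Over all tested genes the shares were 32.9% higher and 31.9% lower with DUX4 and 40.2% higher and 42.3% lower with DUXC. The list's median log2 fold change was -0.42 with DUX4 and -1.01 with DUXC, beside the medians of all tested genes given above. Caldesmon (CALD1), which holds myosin off actin, went from 2978 ± 76.1 CPM with GFP to 1079 ± 26.2 with DUX4 and 1224 ± 47.9 with DUXC (mean ± SD, n = 3, log2 -1.46 and -1.28). The regulatory light chain MYL9, the substrate of MYLK, went from 261 ± 8.23 to 98.6 ± 6.06 and 69.3 ± 2.36 CPM (log2 -1.40 and -1.91). Desmin (DES), the intermediate filament protein of muscle, had the most negative change of the list with either factor, from 7.15 ± 0.326 to 2.10 ± 0.335 and 1.07 ± 0.137 CPM (log2 -1.76 and -2.74).

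The tropomyosins TPM1 and TPM2, which lie along the actin filament, fell by 1.12 and 0.88 on the log2 scale with DUX4 and by 1.22 and 1.77 with DUXC. Integrin subunits in this list moved apart. The collagen receptor subunit ITGA1 fell from 82.6 ± 1.65 CPM to 28.1 ± 1.56 CPM with DUX4 and 41.3 ± 2.14 CPM with DUXC, and ITGA8, a subunit found on smooth muscle, fell by 0.32 and 1.96 on the log2 scale. The laminin receptor subunit ITGA7 rose with DUX4 from 5.77 ± 0.438 to 14.8 ± 0.991 CPM (log2 1.36) and fell to 4.07 ± 0.545 CPM with DUXC (log2 -0.50). FHL2, a LIM-domain partner of SRF, rose with DUX4 (log2 0.69) and fell with DUXC (log2 -1.10). Between the factors, 23 of the 29 genes were higher with DUX4 and 5 with DUXC, against 40.8% and 41.6% of all tested genes.

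**Figure D3:**
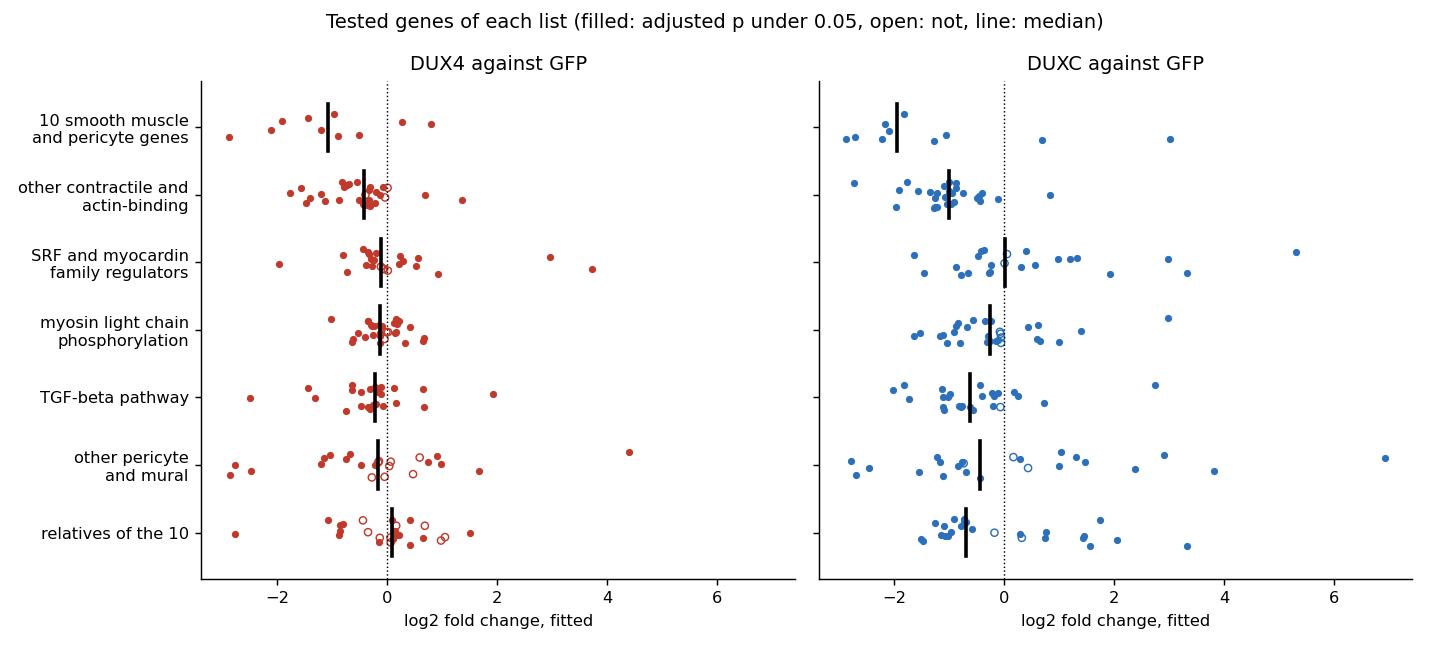
Fitted log2 fold change of every tested gene in each list with DUX4 (left) and DUXC (right) against GFP; filled points passed the test, open points did not, and the black line is the median of the list. The median of the 10 smooth muscle and pericyte genes lies at -1.08 with DUX4 and -1.96 with DUXC. That of the other contractile and actin-binding genes lies at -0.42 and -1.01.

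SRF, the transcription factor shared by most of these genes, fell from 62.1 ± 1.69 CPM with GFP to 48.6 ± 1.78 with DUX4 and 39.4 ± 0.890 with DUXC (log2 -0.35 and -0.66). Its actin-sensing partners MKL1 and MKL2 fell by 0.29 and 0.32 on the log2 scale with DUX4 and by 0.37 and 0.48 with DUXC. Myocardin (MYOCD), the partner specific to smooth and cardiac muscle, had 1 count over the GFP libraries, 10 with DUX4 and 10 with DUXC, and did not pass the filter. Of 25 regulators in the table, 23 were tested, with 8 higher and 11 lower with DUX4 and 10 higher and 11 lower with DUXC. The shares over all tested genes were 32.9% higher and 31.9% lower with DUX4 and 40.2% higher and 42.3% lower with DUXC. The median log2 fold change of these regulators was -0.11 with DUX4 and 0.0016 with DUXC.

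Within this group KLF5, a zinc finger factor of proliferating smooth muscle, rose from 0.952 ± 0.117 CPM to 12.6 ± 1.28 with DUX4 and 37.9 ± 2.98 with DUXC (log2 3.73 and 5.31). Its relative KLF4, which opposes myocardin at smooth muscle genes, fell by 0.44 and 0.88 on the log2 scale. MEF2C, a MADS-box factor of muscle, rose with both factors (log2 0.93 and 1.92). PRRX1, a homeobox factor of mesenchyme, fell from 2014 ± 12.2 to 1211 ± 19.8 and 727 ± 10.1 CPM. GATA6, a zinc finger factor of smooth muscle and endoderm, fell with DUX4 and rose with DUXC (log2 -0.80 and 0.97), and HAND2, a factor of the heart and limb, rose with DUX4 and fell with DUXC (log2 0.23 and -1.65).

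Genes that set the phosphorylation of the myosin light chain moved in both directions. Of 29 tested, 10 were higher and 16 lower with DUX4, and 7 were higher and 18 lower with DUXC. All tested genes stood at 32.9% higher and 31.9% lower with DUX4 and at 40.2% higher and 42.3% lower with DUXC. The list's median log2 fold change was -0.12 with DUX4 and -0.26 with DUXC. PPP1R12B, a targeting subunit of the phosphatase that opposes MYLK, fell with DUX4 from 16.2 ± 1.10 to 8.01 ± 1.07 CPM and rose to 21.7 ± 0.385 CPM with DUXC. The small GTPase gene RHOB rose from 63.5 ± 1.15 to 84.9 ± 3.67 CPM with DUX4 and 498 ± 30.2 CPM with DUXC (log2 0.42 and 2.97). ARHGEF25, a guanine nucleotide exchange factor, fell with both (log2 -0.62 and -1.53).

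All 25 TGF-beta pathway genes in the table were tested. With DUX4, 5 were higher and 20 lower, and with DUXC 4 were higher and 20 lower. This compares with 32.9% higher and 31.9% lower with DUX4 and 40.2% higher and 42.3% lower with DUXC over all tested genes. The list's median log2 fold change was -0.22 with DUX4 and -0.63 with DUXC. Of the ligands, TGFB1 rose with DUX4 and fell with DUXC (log2 0.67 and -0.40), while TGFB2 (log2 -0.31 and -2.03) and TGFB3 (log2 -0.17 and -1.12) fell with both. Among the receptors, the coreceptor TGFBR3 fell from 78.6 ± 1.55 CPM to 29.2 ± 1.36 with DUX4 and 58.1 ± 0.951 with DUXC, and ACVRL1, a type I receptor, fell from 5.07 ± 0.576 to 0.899 ± 0.102 and 2.49 ± 0.313 CPM. CTGF, a target induced by the pathway, fell from 468 ± 17.2 to 303 ± 2.81 CPM with DUX4 and rose to 3143 ± 50.3 CPM with DUXC. TGFBI, another target, rose with DUX4 (log2 0.66) and fell with DUXC (log2 -1.73).

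Other genes of pericytes and mural cells moved in both directions. Of 23 tested, 5 were higher and 10 lower with DUX4, and 9 were higher and 11 lower with DUXC. For comparison, all tested genes gave 32.9% higher and 31.9% lower with DUX4 and 40.2% higher and 42.3% lower with DUXC. The list's median log2 fold change was -0.16 with DUX4 and -0.45 with DUXC. NOTCH3, a receptor that maintains vascular smooth muscle, fell from 108 ± 4.33 CPM with GFP to 19.5 ± 0.801 with DUX4 and 15.7 ± 0.466 with DUXC (log2 -2.47 and -2.79). PDGFRB, the receptor that recruits pericytes, fell by 0.74 and 1.16 on the log2 scale. Both subunits of the pericyte potassium channel fell, ABCC9 with log2 fold changes of -2.77 and -0.45 and KCNJ8 with -2.85 and -0.85. The pericyte marker RGS5 had 11 counts over the GFP libraries, 16 with DUX4 and 59 with DUXC. In the edgeR test it rose with DUXC (log2 2.38, adjusted p = 5.30e-06) and did not pass with DUX4 (log2 0.47, adjusted p = 0.502).

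The signalling regulator RGS4 had the most positive change of this list with either factor, from 1.84 ± 0.373 CPM with GFP to 38.8 ± 2.08 with DUX4 and 225 ± 6.97 with DUXC (log2 4.39 and 6.93). The protease gene ADAMTS1 rose with both (log2 1.67 and 3.81), and EBF2, a factor of mesenchymal progenitors, rose with DUXC from 9.23 ± 0.301 to 68.6 ± 0.953 CPM. NDUFA4L2, a hypoxia-induced mitochondrial protein gene, rose with DUX4 from 31.2 ± 0.673 to 52.1 ± 4.66 CPM and fell to 4.79 ± 0.519 CPM with DUXC. The peptidase gene ANPEP fell with DUXC from 119 ± 2.87 to 21.5 ± 0.612 CPM.

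Several of the 10 genes have relatives with a general role in nonmuscle cells or a role in striated muscle. Of 25 tested relatives, 9 were higher and 7 lower with DUX4, and 9 were higher and 14 lower with DUXC. Those counts stand beside 32.9% higher and 31.9% lower with DUX4 and 40.2% higher and 42.3% lower with DUXC among all tested genes. The list's median log2 fold change was 0.09 with DUX4 and -0.70 with DUXC. Cytoplasmic beta actin, ACTB, had a log2 fold change of -0.14 with DUX4, against -2.87 for ACTA2, and fell with DUXC from 2537 ± 53.4 to 1137 ± 17.3 CPM (log2 -1.16). Nonmuscle myosin MYH10 rose with DUX4 (log2 0.16) and fell with DUXC (log2 -0.91), and MYH9 fell with DUXC (log2 -1.49).

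In the calponin family, CNN2 fell with both factors (log2 -0.87 and -1.07), while CNN3 rose with DUX4 (log2 0.15) and fell with DUXC (log2 -0.59). TAGLN2 rose with DUX4 from 407 ± 11.8 to 545 ± 30.7 CPM and fell to 200.2 ± 3.95 CPM with DUXC, while TAGLN fell with both. Tropomodulin 1 (TMOD1), a relative of LMOD1 that caps actin filaments, fell from 8.27 ± 0.551 CPM to 1.21 ± 0.129 with DUX4 and rose to 13.8 ± 0.431 with DUXC. Of the relatives of SYNPO2, SYNPO fell with DUXC (log2 -0.70), while the striated muscle form SYNPO2L rose from 0.160 ± 0.0651 to 1.63 ± 0.204 CPM. Among adhesion molecules of the superfamily of MCAM, ALCAM rose with DUX4 and fell with DUXC (log2 1.51 and -0.73). L1CAM did likewise (log2 0.42 and -1.51), and BCAM fell with both factors (log2 -1.08 and -1.27).

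**Figure D4:**
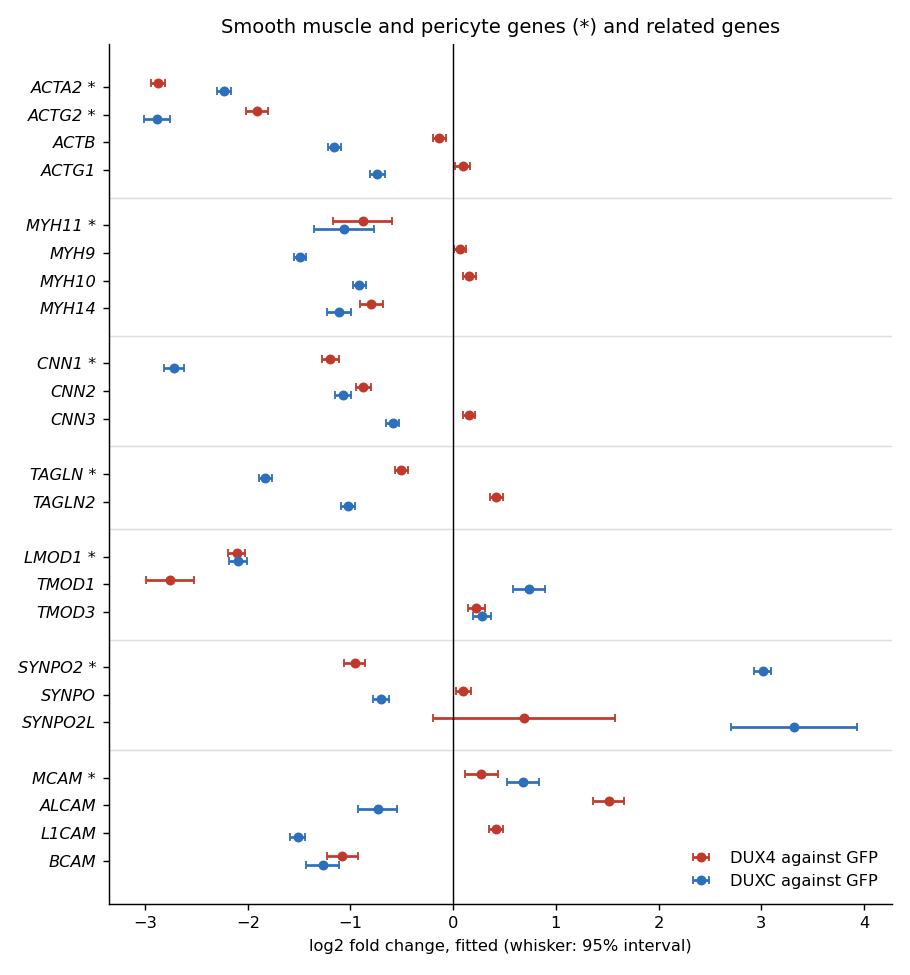
Fitted log2 fold change against GFP with DUX4 (red) and DUXC (blue) for 8 of the 10 genes, marked with an asterisk, and for related genes below each; whiskers are 95% intervals. ACTA2 lies at -2.87 with DUX4 where ACTB lies at -0.14, and SYNPO2 and SYNPO2L lie to the right of 0 with DUXC where SYNPO lies at -0.70.

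The genes whose pattern over the 9 libraries was most like that of each of the 10 were found by the smallest Euclidean distance between profiles of log2 (CPM + 0.5), each centred on its GFP mean, among 13667 genes of at least 1 CPM. LIMS2, an adaptor of integrin complexes, was nearest to ACTA2 (distance 0.246), with 20.6 ± 0.894 CPM with GFP, 2.44 ± 0.268 CPM with DUX4 and 4.03 ± 0.132 CPM with DUXC. CCDC141 (0.150) and CALD1 (0.302) were nearest to MYLK, and COL8A2, a collagen gene (0.297), was nearest to LMOD1. LOXL4, an enzyme that crosslinks collagen, was nearest to CSPG4 (0.189), at 158 ± 4.20, 268 ± 7.85 and 37.0 ± 0.279 CPM. CYB561 (0.228) was nearest to TAGLN, SCAND1 (0.180) to MCAM, ADAMTS16 (0.520) to CNN1 and UBR7 (0.746) to ACTG2. For MYH11 and SYNPO2 the nearest genes have no name beyond an identifier, and the nearest named ones were TUFT1 (0.283) and GLIPR1 (0.568). GLIPR1 had 6.53 ± 0.525 CPM with GFP, 3.08 ± 0.387 CPM with DUX4 and 46.7 ± 0.422 CPM with DUXC. Among the 10 genes themselves the closest pair was ACTG2 and CNN1 (1.23). This distance cannot be set against those above, since each nearest gene was the closest of a pool of 13667.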

How the data were processed

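Messenger RNA of 9 libraries was sequenced after a stranded library preparation, per the labels' protocols. The deposited values are raw counts of reads per gene. The submitters' processing notes name CASAVA 1.9, Trim Galore, featureCounts and the build Sscrofa11.1. For the aligner, the version of the gene annotation and the use of strand, the sources used here give nothing.

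Counts were filtered with filterByExpr, scaled by TMM and fitted over all 9 libraries in 1 model with the quasi-likelihood test of edgeR 4.0.16 (R 4.3.3, two-sided, Benjamini-Hochberg adjustment over 15956 genes, threshold 0.05), and intervals are 95%. The code was tested on simulated counts. Positions come from RefSeq genes of Sscrofa11.1. Alternatives used DESeq2 1.42.0, limma 3.58.1, other scalings, no filter, fewer groups, a replicate block, left-out libraries and summed actins.

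The 10 genes and all gene lists were chosen with earlier results of these data known. Beside the 10, the text names genes among the 3 largest changes of each list in each direction (passed, at least 1 CPM), relatives of the 10, SRF and its partners, TGF-beta ligands and the 3 nearest profiles of each gene. Outside this rule and chosen after their values were seen are TPM1, TPM2, PDGFRB, RGS5, the markers MYOD1, CDH5, VWF, PTPRC and CD3E, and the genes that overlap or lie next to the 10 (among them SEC24D and CBL). Results of some listed genes are not reported here.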

Additional observations from a re-analysis of the deposited data

How the results depend on the processing

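Against GFP, each of the 10 genes kept its direction and stayed past the threshold with either factor under every alternative run for it: other scalings, no filter on low counts, DESeq2, limma-voom, a fit of the compared groups alone, the replicate block, each library left out in turn, and the summed actins. Between the factors, the genes lower with DUX4 numbered 5 in place of 3 with library size alone, which added MYLK and LMOD1. Over all 15956 tested genes the lower ones numbered 7376 in place of 6635, and the median shift was -0.10. The cause was not tested. MYLK also passed with DESeq2-type size factors (log2 -0.21, adjusted p = 0.021) and without the second DUX4 library. The LMOD1 difference, at 0 within its error, changed sign to log2 0.032 with no filter, and ran from -0.051 to 0.050 as each library was left out, above 0 without the second DUX4 library and without the first DUXC library. The ACTG2 difference turned to log2 -0.59 once the 4 muscle actins were summed, since ACTA2 holds most of that sum.

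Libraries with the same replicate number did not deviate together: the correlations of their residuals ran from -0.0567 to 0.0749. With the replicate block, 5204 genes were higher and 5068 lower with DUX4 than with GFP, against 5248 and 5092 without it, and the block changed no call among the 10 genes. With 3 libraries a group an exact permutation test of 1 gene cannot give a p below 0.1, so the calls rest on the spread shared across genes. The fit also shares the spread over the groups, which were not alike. Between pairs of libraries, the squared deviation of counts relative to random counting was 7.32 to 19.4 with DUX4. It was 2.71 to 3.85 with GFP and 3.39 to 4.71 with DUXC, so intervals with DUX4 may be too narrow. MYH11, at 54 to 76 counts in the DUXC libraries, was the least precise of the 10.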

Other observations

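Genes next to some of the 10 on the chromosome had values of their own. MYOZ2, which encodes a Z-disc protein of striated muscle and lies near SYNPO2, had 5 counts over the GFP libraries, 1670 with DUX4 and 2851 with DUXC. USP53, on the same stretch, had 121 ± 6.10, 156 ± 4.66 and 75.0 ± 3.66 CPM in the GFP, DUX4 and DUXC groups. FAS, a death receptor gene near ACTA2, had 25.5 ± 1.25, 13.9 ± 0.836 and 33.8 ± 0.171 CPM. SHISA4, near LMOD1, had 53.5 ± 1.09, 50.8 ± 4.23 and 20.5 ± 0.931 CPM. These 4 genes were picked after their values were seen.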
